A study of Drosophila melanogaster with 17 samples.

Results

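The genes described here are the 9 chorion genes of the amplified clusters, taken by name from the RNA table (12505 protein-coding genes) and the RNA polymerase II (Pol2) table (13797 genes), and all 9 were found in both. Cp18, Cp15, Cp19 and Cp16 lie side by side on the third chromosome (arm 3L), and Cp7Fa, Cp7Fb, Cp7Fc, Cp36 and Cp38 lie side by side on X, each in this order in the RefSeq gene table of Release 6. The measurements used ovaries dissected from Drosophila melanogaster females at 2 to 4 days of age, wild type or mutant for cutoff (cuff), with 3 RNA-seq and 3 Pol2 ChIP-seq libraries for each genotype, each library from the ovaries of about 30 females. The labels name neither the cuff allele nor the wild-type strain. The labels also list 2 ChIP libraries of Cuff itself, made from an EGFP fusion line, and 3 input controls labelled wild type, which were not used here.

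Chorion proteins form the outer eggshell. Follicle cells, the somatic epithelium around the oocyte, secrete them late in oogenesis, within a short time and in very large amounts. To meet this demand the follicle cells copy both chorion clusters repeatedly from local replication origins, so that each cell holds many more copies of them than of the rest of its genome, with copy number falling off on both sides of a cluster. Cp36 and Cp38 are major proteins made early in this programme, and Cp15 and Cp18 are made at its end. Cuff itself is a germline protein that, together with Rhino and Deadlock, lets piRNA clusters be transcribed.

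Each gene had 1 value per genotype and assay, called the authors' mean below, in which the 3 libraries are merged. No spread between libraries could be given, and replicate error could enter only through the p-value in the authors' deposited table. A gene was said to fall or rise where that p was 0.05 or less. In bulk ovaries fewer follicle cells of the late stages and less RNA per cell cannot be told apart. For Pol2, fewer DNA copies and less polymerase per copy cannot be told apart either, since no input values of the genotypes were analysed here.

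Polymerase occupancy fell at every chorion gene of both clusters in the mutant. The sum over the 9 genes went from 1085170.4 in wild type to 487908.8, or 2.22-fold lower, and their share of the whole Pol2 table from 2.10% to 0.975%. All 9 passed the threshold, against 0.652% of all genes tested that fell and 0.812% that rose. Their median log2 change was -1.07, beside 0.08 over all genes.

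In the third chromosome cluster, Cp19, one of the small chorion proteins, went from a Pol2 mean of 323233.6 to 119977.2 in the mutant, 2.69-fold lower. Cp16, beside it, went from 64564.8 to 24004.8, by the same factor of 2.69. For both, p is listed at 0 in the authors' deposited table, which means below 2e-13, the smallest other value printed there. Cp15, a protein of the latest chorion, fell 2.10-fold (224582.4 to 107192.2; the authors' deposited table gives p = 6e-10). Cp18, at the edge of the cluster, had the smallest loss of all 9 genes, 1.60-fold (26505.7 to 16613.8; the authors' deposited table gives p = 0.008). Within this cluster the Pol2 loss was therefore larger at the pair Cp19 and Cp16 than at Cp15 and Cp18, though the differences between members were not tested.

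In the X cluster, Cp7Fa had the largest Pol2 loss of the 9 genes, 2.79-fold (27718 to 9927.2, p listed at 0). Cp36, whose loss of function gives a defective chorion, fell 2.16-fold (142898.5 to 66143.9; the authors' deposited table gives p = 1e-12). Cp38, its neighbour, fell 2.02-fold (173253.5 to 85604.9; the authors' deposited table gives p = 9e-12). Cp7Fc fell 1.96-fold (38349.4 to 19537.3; the authors' deposited table gives p = 4e-07) and Cp7Fb 1.65-fold (64064.5 to 38907.5; the authors' deposited table gives p = 4e-05). Cp7Fa, Cp7Fb and Cp7Fc are neighbours, yet they held both the largest and the second smallest loss of all 9 members. By cluster sums the loss was 2.03-fold on X and 2.39-fold on the third chromosome.

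**Figure D1:**
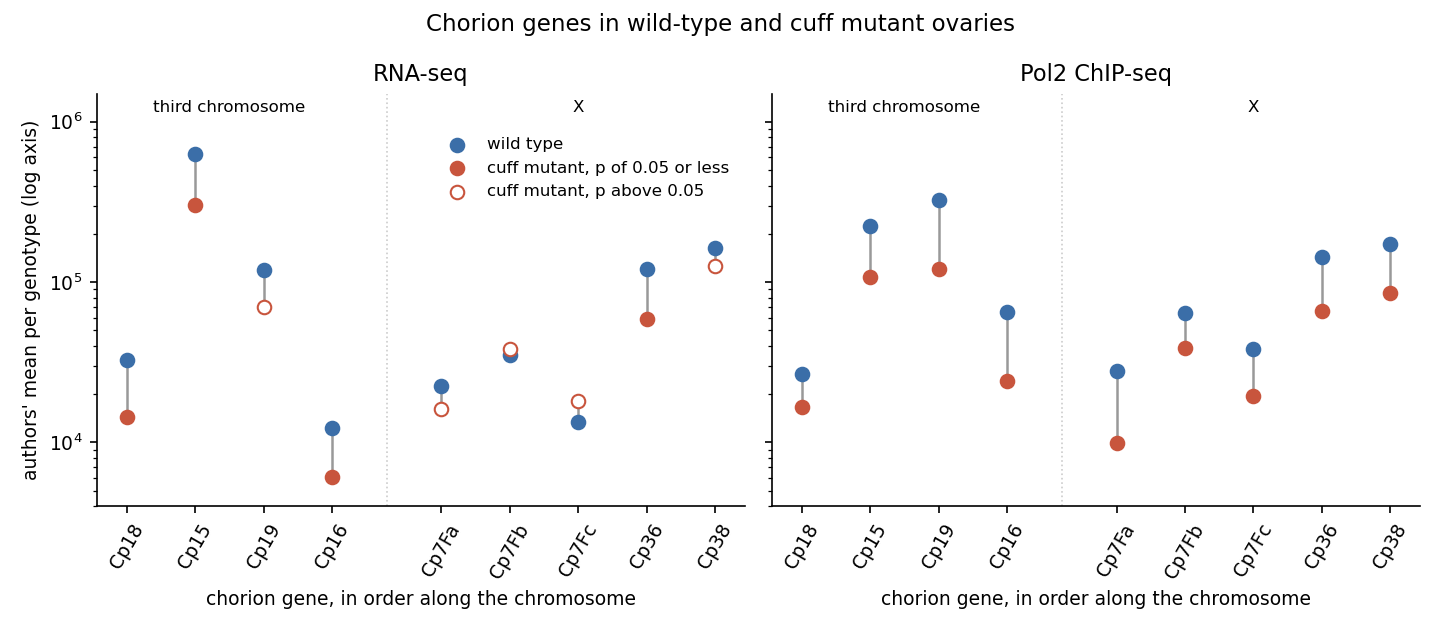
Authors' mean of each chorion gene (log axis) in wild type (blue) and the cuff mutant (red) for RNA-seq (left) and Pol2 ChIP-seq (right), with the genes in chromosomal order. A filled mutant point marks a deposited p of 0.05 or less. In Pol2 all 9 mutant points are filled and lie below wild type, whereas in RNA 4 are filled and those of Cp7Fb and Cp7Fc lie above wild type.

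By the deposited p, fewer of these genes passed in RNA than in Pol2. The counts of the 2 assays may not be on a like scale. Within the limits of level and fold given below p was smaller in Pol2. The few Pol2 genes within those limits include members themselves, so this is no independent measure of the assay. In RNA 4 of 9 members fell and none rose, against 3.73% of all RNA genes that fell and 5.50% that rose. The summed RNA mean went from 1150240.2 to 647621.3, or 1.78-fold lower, and its share of the table from 1.29% to 0.757%. The median log2 change was -0.78, beside 0.02 over all genes, and -0.48 when each gene was centred on the median change of genes of like length. Whether the RNA change and the Pol2 change of a gene differ could not be tested on merged values.

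On the third chromosome 3 of 4 transcripts fell. Cp15 RNA went from a mean of 629696.4 to 300466, 2.10-fold lower (p = 8e-05 in the authors' deposited table), which equals its Pol2 loss. Cp18 RNA went from 32846.4 to 14446.2, 2.27-fold lower (p = 0.004 in the authors' deposited table), the largest RNA fall of the 9 genes, at the member with the smallest Pol2 loss. Cp16 RNA fell 2.00-fold, from 12201.9 to 6093.9 (p = 0.02 in the authors' deposited table). Cp19 had RNA means of 119483 and 69784, with p = 0.08 in the authors' deposited table, and did not pass.

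On X only Cp36 passed in RNA, falling 2.06-fold from 121384.8 to 58941.4 (p = 0.004 in the authors' deposited table). Cp38 had an RNA mean of 163389.8, and 125223.2 in the mutant (p = 0.7 in the authors' deposited table), and Cp7Fa had 22617 and 16089.4 (p = 0.3 in the authors' deposited table). Cp7Fb had 35199.1 and 38429.3 (p = 0.6 in the authors' deposited table), and Cp7Fc 13421.8 and 18147.9 (p = 0.07 in the authors' deposited table), both higher in the mutant. So of the 5 X genes, all with less Pol2, 1 fell in RNA, 2 had a lower mean without passing and 2 had a higher mean without passing. By cluster sums RNA was 2.03-fold lower on the third chromosome and 1.39-fold lower on X, with median log2 changes of -1.03 and -0.38. The difference between the clusters was not tested.

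These counts depend on how the deposited p is read. Whether it had been adjusted is not said in the headers. Adjusted again over all genes with the Benjamini-Hochberg method, 1 member still fell in RNA, Cp15, at an adjusted p of 0.00524, against 0.880% of all RNA genes that fell and 1.93% that rose. In Pol2 8 of 9 still fell, all but Cp18, against 0.225% of all Pol2 genes that fell and 0.130% that rose. The deposited p also did not follow level and fold of the means alone. Of 84 genes with a wild-type RNA mean of at least 10000 and an absolute log2 change between 0.9 and 1.1, 67 passed. Their p ran from 8e-05 to 0.9 in the authors' deposited table. Within the same limits in Pol2 all 7 genes passed. Their p ran from 2e-12 to 5e-05 in the authors' deposited table. Among them were the members Cp15, Cp38 and Cp7Fc, and CG33223, whose span holds the X cluster. CG6511, near Cp18, and the vitelline membrane gene Vm34Ca were there too. These 7 genes are therefore no independent gauge of p in Pol2. Among the members, the 1.30-fold RNA difference of Cp38 had p = 0.7 and the 1.35-fold RNA difference of Cp7Fc p = 0.07 in the authors' deposited table. The headers name the software and its dispersion setting, but not the design formula or the adjustment.

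Ratios of RNA to Pol2 set the genes apart within each genotype. The unit of this ratio is arbitrary, so it is compared only between genes and genotypes. In wild type it was 2.80 at Cp15 and 0.189 at Cp16, the highest and lowest of the 9, although both lie in the same cluster. Cp15 kept the same ratio of 2.80 in the mutant, and Cp36 had 0.849 in wild type and 0.891 in the mutant. At Cp7Fc the ratio was 0.350 in wild type and 0.929 in the mutant, 2.65 times as high. At Cp7Fa it was 1.99 times as high, at Cp7Fb 1.80 times, at Cp19 1.57 times, at Cp38 1.55 times and at Cp16 1.34 times. Cp18 alone had a lower ratio in the mutant, 0.870 against 1.24. These ratios carry no error and were not tested.

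**Figure D2:**
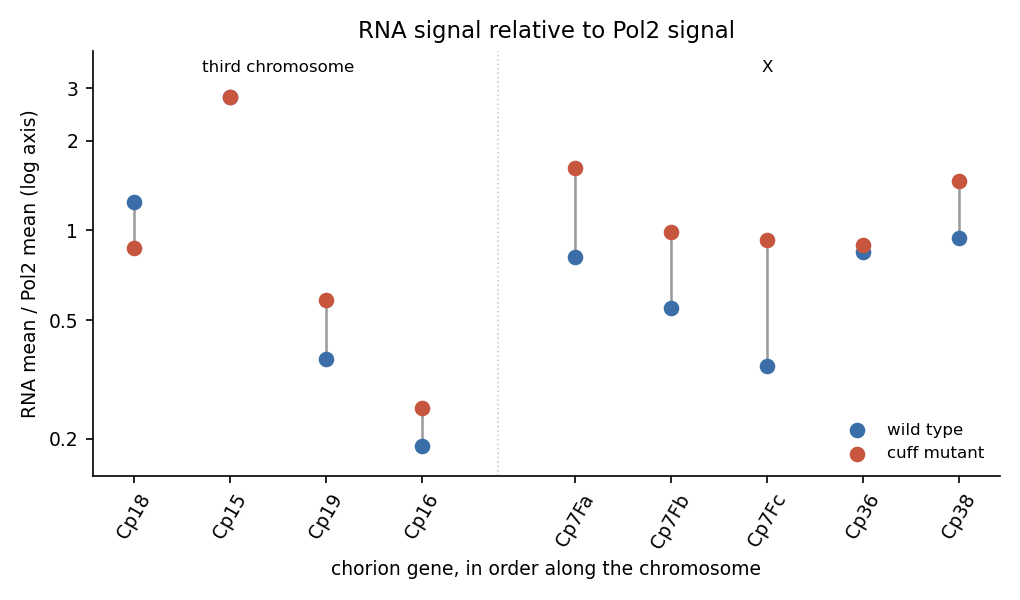
RNA mean divided by Pol2 mean (log axis) of each chorion gene in wild type (blue) and the cuff mutant (red). The points of Cp15 coincide at 2.80, those of the Cp7F genes lie higher in the mutant, and that of Cp18 lies lower.

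Levels of the chorion genes are compared here per kb of gene, with the length taken from the Release 6 gene table and introns included. In wild-type Pol2 the order was Cp19 (436802 per kb), Cp15 (383246), Cp36 (118588), Cp38 (117460), Cp16 (98422), Cp18 (32206), Cp7Fc (31852), Cp7Fb (28664) and Cp7Fa (12599). Cp19 and Cp15 held ranks 1 and 2 of all Pol2 genes with a length, and Cp36, Cp38 and Cp16 ranks 4, 5 and 6. Hsp26, a small heat shock gene that is active in the germline, lay between them at rank 3. In the mutant Cp15 and Cp19 still held ranks 1 and 2, with 182922 and 162131 per kb in the reverse order, while Cp16 stood at rank 13 and Cp7Fa moved from rank 50 to rank 259. No spread was at hand to say which neighbours in this order differ.

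RNA levels per kb spanned a wider range than Pol2 levels. Wild-type RNA was highest at Cp15 (1074567 per kb, rank 3 of all RNA genes with a length), followed by Cp19 (161464), Cp38 (110773), Cp36 (100734), Cp18 (39911), Cp16 (18600), Cp7Fb (15749), Cp7Fc (11148) and Cp7Fa (10280). The ratio of the highest to the lowest member was 105 in RNA and 34.7 in Pol2. In the mutant it was 70.1 in RNA and 40.5 in Pol2. Cp16, at rank 6 in Pol2, stood at rank 299 in RNA per kb.

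Pol2 also fell at 3 genes right beside the third chromosome cluster, 2 of which overlap each other, and at no separate neighbour of the X cluster. The 10 genes on each side of each cluster come to 40, of which 4 fell in Pol2 and 2 rose, but one that fell, CG33223, spans the X cluster and is described below. Of the other 39, 3 fell and 2 rose, against 0.652% and 0.812% of all Pol2 genes, with a median log2 change of -0.04. With the p adjusted again 2 fell, CG43965 and CG6511, and none rose. These 2 genes overlap, as described below, and may share reads, so they may not be separate neighbours. CG43965, next to Cp18, fell 2.69-fold in Pol2 (11022.7 to 4092.1; the authors' deposited table gives p = 9e-12). CG6511, the next gene outward, fell 1.93-fold (46322.4 to 23940.1; the authors' deposited table gives p = 3e-07). Prm, on the other side next to Cp16, fell 1.50-fold (49453.7 to 32893.3; the authors' deposited table gives p = 0.0007). Beyond them the Pol2 log2 changes were -0.41 at CG32022 and -0.32 at SrpRbeta on one side. On the other side they were -0.13 at CG13306 and -0.04 at Fhos. Beside the X cluster they were -0.38 at CG12116, -0.46 at Sptr and -0.33 at Es2 on one side. On its other side they were -0.25 at otu and -0.08 at CG33181. None of these passed, changes of like size lay beside both clusters, and a gradient was not tested. The 5 outermost genes on the Prm side had Pol2 log2 changes from 0.85 to 1.55 at low wild-type means of 84.4 to 451.8, and of these CG32023 alone passed.

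RNA at these neighbours did not follow Pol2 in each case. Prm encodes paramyosin, a protein of muscle thick filaments, and its RNA rose from 796.7 to 1924.8, 2.42-fold (p = 0.001 in the authors' deposited table), while its Pol2 signal fell. Of the 8 muscle sheath markers listed for comparison 5 rose in RNA and none fell, against 5.50% and 3.73% of all RNA genes. Whether muscle content has a part in the Prm change was not tested. CG6511 had RNA means of 3300.1 and 4124.2 (p = 0.5 in the authors' deposited table). CG43965 RNA fell 3.57-fold (4463.1 to 1251.7; the authors' deposited table gives p = 5e-07), more than any chorion transcript. CG43965 lies within the span of CG6511 in Release 6, and how reads in their shared stretch were counted is not stated.

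On X, CG33223 could not be set apart from the chorion genes themselves. Its span in Release 6 holds all 5 of them, and its Pol2 mean was the highest in the whole table in both genotypes, 505537.4 in wild type and 248784.8 in the mutant (2.03-fold lower, as was the sum of the 5; p = 3e-10 in the authors' deposited table). The summed Pol2 means of the 5 chorion genes came to 88.3% of that value in wild type and 88.5% in the mutant, so its fall is no separate result. RNA of CG33223 was 15789.2 and 15664 (p = 1 in the authors' deposited table). CG12116, next to Cp7Fa, had Pol2 means of 1613.5 and 1243.8 (p = 0.4 in the authors' deposited table), and otu, a germline gene next to Cp38, 8879.6 and 7479.5 (p = 0.5 in the authors' deposited table). Neither passed.

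Other neighbours passed without a common direction. In Pol2 CG15347 went up from 3247.9 to 6187.7, 1.91-fold (p = 0.0006 in the authors' deposited table), and CG32023 rose from the low Pol2 level of 84.4 to 248.7 (p = 0.03 in the authors' deposited table). In RNA 37 of the 40 neighbours were in the table, of which 2 fell and 5 rose, against 3.73% and 5.50% of all RNA genes. With the p adjusted again 1 fell and 2 rose. CG12123, near the X cluster, fell 2.07-fold. Near the third chromosome cluster, in addition to Prm, Fhos rose 1.93-fold and CG13310 went from 1.8 to 73.8. Near the X cluster Nrg, a cell adhesion gene, rose 2.56-fold and Trf4-1 1.78-fold.

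**Figure D3:**
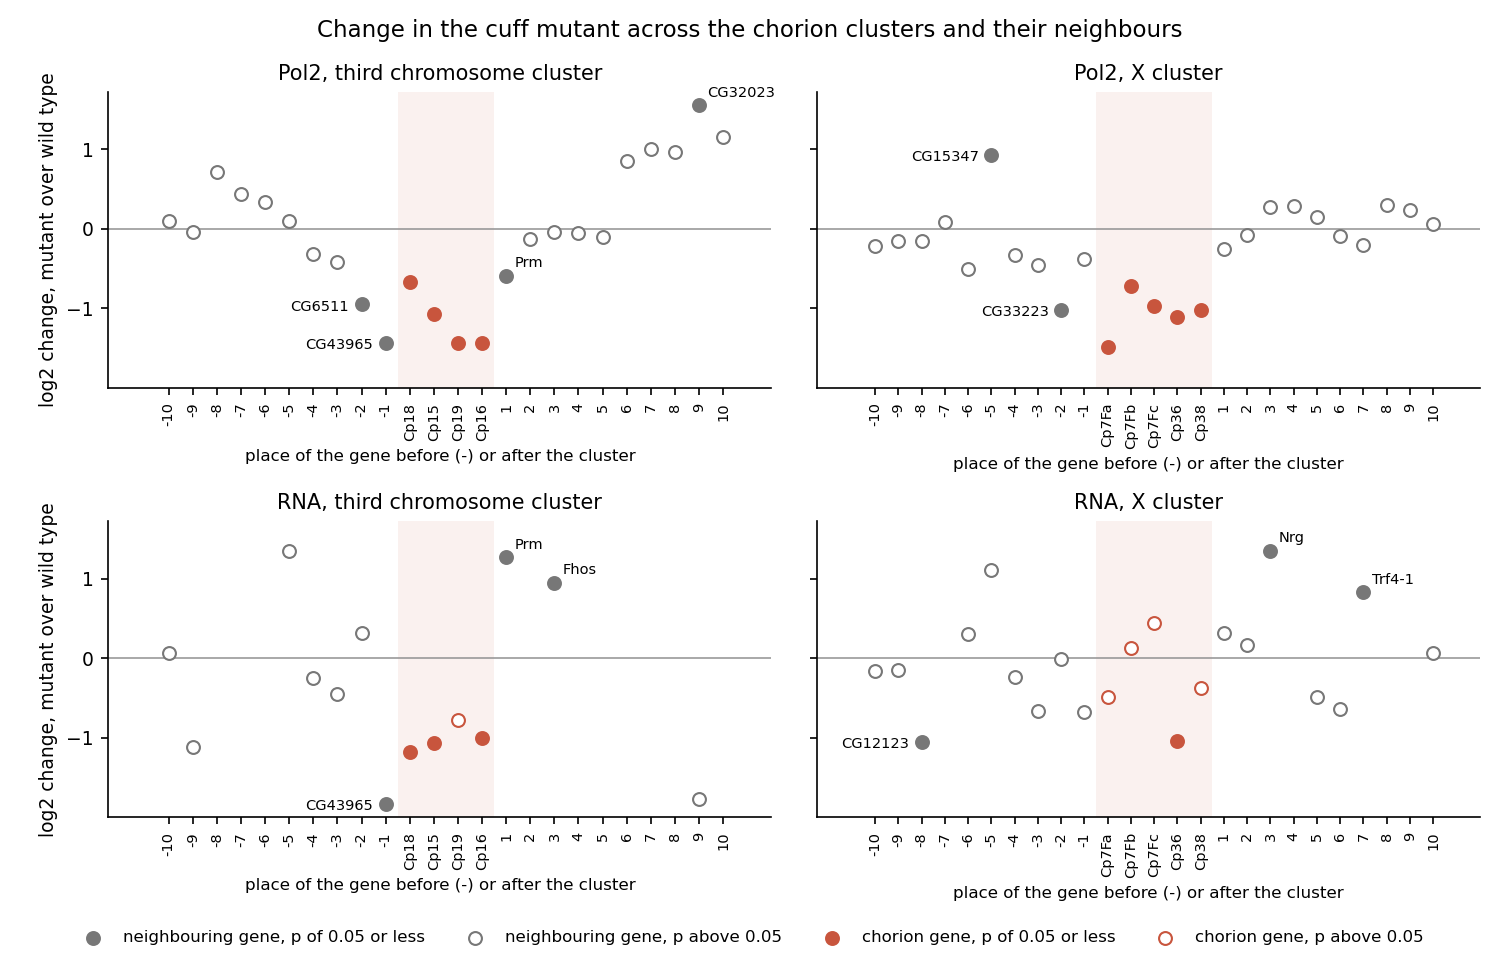
Log2 change (mutant over wild type) of the chorion genes (red, shaded) and the 10 protein-coding genes on each side (grey), by gene order, for Pol2 (top) and RNA (bottom). Filled points have a deposited p of 0.05 or less, and genes with a mean under 50 are not drawn. Pol2 changes lie lowest within the clusters, at CG43965 and CG6511 beside Cp18, and at CG33223, which spans the X cluster. The RNA points of the X cluster spread on both sides of 0.

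Of 5 genes of other follicle cell amplicons, stretches outside both clusters that follicle cells also copy, 3 fell in both assays. In all 4 fell in Pol2 and 4 in RNA, against 0.652% and 3.73% of all genes, and 3 in each with the p adjusted again. Their median log2 changes were -1.18 and -1.03. The list was written from memory of published amplicons with the change of CG13114 and the yellow genes known, so its direction is not independent evidence. CG13114 fell 2.77-fold in Pol2 (17664.2 to 6367.4) and 3.32-fold in RNA (15229.4 to 4590). yellow-g2 fell 2.44-fold in Pol2 (23644.9 to 9688.3) and 2.47-fold in RNA (41011.7 to 16605.6), and yellow-g, its neighbour and relative, fell 2.27-fold and 1.71-fold. CG13113 fell 2.05-fold in RNA and had Pol2 means of 1276.9 and 713.8 (p = 0.08 in the authors' deposited table). CG11381 fell 1.65-fold in Pol2 and had RNA means of 7429 and 9591.7 (p = 0.8 in the authors' deposited table).

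Of 7 vitelline membrane genes, which follicle cells express before the chorion genes, 6 fell in Pol2, against 0.652% of all genes, and 3 with the p adjusted again. Their median log2 change was -0.60. Vm34Ca fell 2.00-fold (43451.1 to 21687.7) and its RNA means were 26463.7 and 13086.2 (p = 0.2 in the authors' deposited table). In Pol2 Vm26Aa fell 1.69-fold (27945.2 to 16549.2), Vm26Ab 1.64-fold and psd 1.49-fold. In RNA none of the 7 passed as lower, against 3.73% of all RNA genes, although 3 had a lower mean. Vml RNA rose from 6337.3 to 21394.6, 3.38-fold (p = 0.05 in the authors' deposited table), against 5.50% of all RNA genes that rose. It did not pass with the p adjusted again. The median log2 change of the 7 in RNA was 0.20. Of 11 other eggshell genes, a list that shares yellow-g and yellow-g2 with the amplicon genes, 3 fell in Pol2 and none rose. Over all Pol2 genes 0.652% fell and 0.812% rose. All 3 still fell with the p adjusted again. They were yellow-g2, yellow-g and Femcoat, a late eggshell gene (2537.5 to 1163.4, 2.18-fold). In RNA 3 of these 11 fell, including Fcp3C (2.26-fold), against 3.73% of all RNA genes. Cad99C, a cadherin of follicle cell microvilli, rose 1.87-fold, against 5.50% of all RNA genes that rose. With the p adjusted again yellow-g2 alone of this list fell in RNA and none rose.

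**Figure D4:**
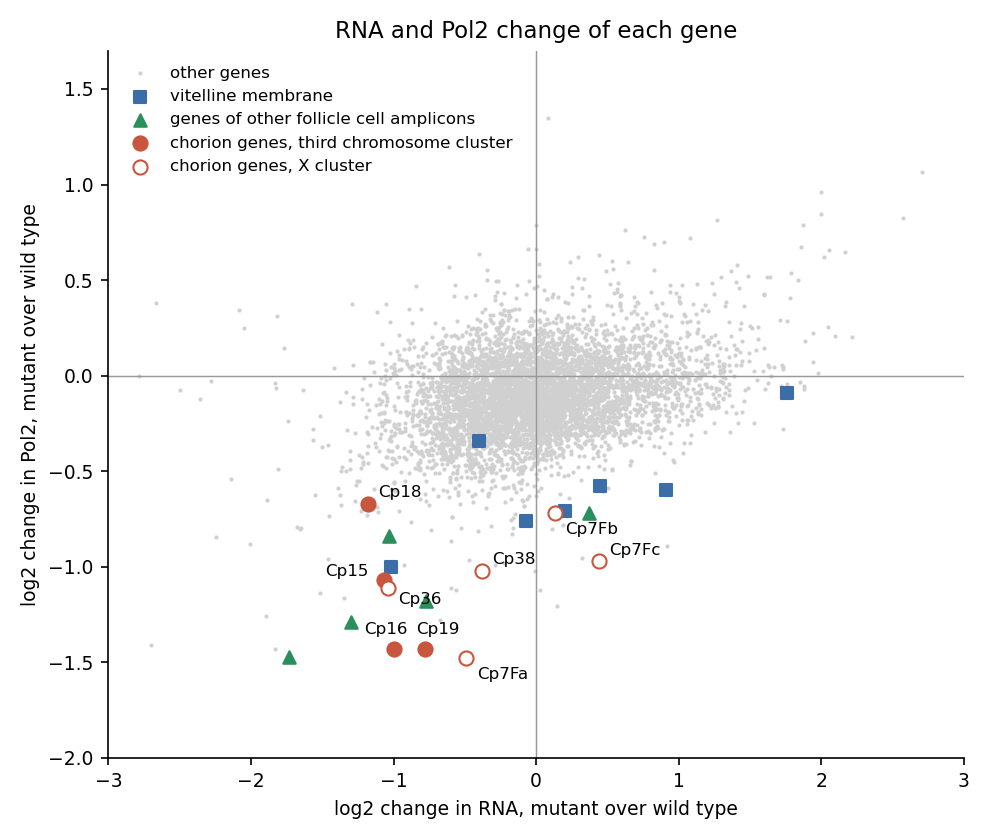
Log2 change in RNA (x axis) against log2 change in Pol2 (y axis), mutant over wild type, of genes with a wild-type mean of at least 1000 in both tables (grey; 4 of 5814 lie outside the axes) and of the named lists. The third chromosome chorion genes lie low on both axes, and the X chorion genes lie low in Pol2 and range from -1.04 to 0.44 in RNA.

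The genes nearest to the chorion genes by both changes together included 2 eggshell genes. Nearness was the Euclidean distance from the members' median point, a log2 change of -0.78 in RNA and -1.07 in Pol2, over 5805 other genes with a wild-type mean of at least 1000 in both tables. It was measured over 2 comparisons only. The nearest was yellow-g at a distance of 0.11, followed by CG3770 (0.17), CG10621 (0.19), Femcoat (0.22) and CG10163 (0.23). Their direction follows from how they were chosen.

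Most of the listed regulators and replication factors of the chorion clusters did not pass the threshold. Of 8 transcription regulators linked to chorion or late follicle cell expression, 2 rose in RNA, against 5.50% of all RNA genes. None fell in RNA or Pol2, against 3.73% and 0.652% of all genes. All 8 had a higher RNA mean and a lower Pol2 mean in the mutant. Their median log2 changes were 0.66 in RNA and -0.14 in Pol2, beside 0.02 and 0.08 over all genes, not centred on gene length. The ecdysone-response gene br rose 3.30-fold in RNA (1544.3 to 5092.6) and slbo, a C/EBP factor of follicle cells, rose 3.35-fold (90.9 to 304.5). None of the 8 rose in Pol2, against 0.812% of all Pol2 genes. With the p adjusted again br alone rose. Of 28 genes of the replication machinery used in amplification, 3 fell in RNA and 1 rose, against 3.73% and 5.50% of all genes, and with the p adjusted again none passed in either assay. The helicase subunit Mcm3 fell 2.00-fold (11398.9 to 5702.6), lat, a subunit of the origin recognition complex, 1.88-fold and Orc6, another, 1.71-fold. chif, an activator of origin firing with a known requirement in chorion amplification, rose 2.00-fold (9321.9 to 18625.8). In Pol2 Orc1 fell 1.75-fold (9958.8 to 5681.7) and no other gene of this list passed, against 0.652% of all genes that fell.

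Markers of cell types moved in RNA as follows. Of 11 follicle cell markers 5 rose and none fell, against 5.50% of all genes that rose, and with the p adjusted again peb alone rose. The summed RNA mean was 398458.9 against 694752.1 in the mutant, and all of this rise lay in the yolk protein genes Yp1 and Yp2, from 309341.4 to 607199. The other 9 markers summed to 89117.5 and 87553.1, and most of this sum was Yp3, with 63450.4 and 47064.8. By gene, 9 of the 11 markers had a higher mean in the mutant and 2 a lower one. Their median log2 change was 0.98, beside 0.02 over all genes, so the flat sum does not describe the single markers. Among those that rose was tj. The markers were not centred on gene length, which moved the RNA median of the chorion genes from -0.78 to -0.48. Follicle cell markers ran from 1.69 kb at Yp1 to 73.3 kb at Fas3, and the part of gene length in their rise was not tested. Of 8 muscle sheath markers 5 rose, against 5.50% of all RNA genes, with sums of 19953.8 and 55548.5. With the p adjusted again 3 rose, sls, bt and Mhc, which are the longest of this list (75.9, 52.1 and 22.2 kb). The shorter up and Tm2 rose at the deposited p only. Of 9 germline markers 1 fell, bam, against 3.73% of all genes, and it also fell with the p adjusted again. The germline sums were 342727.8 and 339479.9. In Pol2 none of the follicle cell or germline markers passed. There 1 muscle marker rose, bt, against 0.812% of all Pol2 genes, and it did not pass with the p adjusted again. None of the markers was at 0 in either genotype. The lists do not separate follicle cells by stage, and the part of cell composition in the chorion result was not tested.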

How the data were processed

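The authors deposited 1 gene table per assay. Per the file headers each is DESeq output with pooled-CR dispersion from a parametric fit alone. The deposited value of each genotype was handled as a signal; it is probably a mean of size-factor scaled counts, but no header says so. The authors' deposited log2 fold change has 1 decimal and the deposited p-value 1 significant digit, so a p of 0.05 is rounded. The submitters' processing notes name DESeq 1.16.0, TopHat2 2.0.8, Bowtie2 2.0.0 and build dm3; the rule for counting reads is not given there. Depth per library cannot be read from merged values; table totals were 89336038 and 85598452 (RNA) and 51692649 and 50036639 (Pol2), wild type then mutant.

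Folds are ratios of the authors' means. Log2 changes used a pseudocount of 1, with Python 3.11.15 and pandas 2.3.3, tested on simulated data. Genes were matched to the RefSeq table of Release 6 for symbol, length and neighbours (12365 RNA and 13647 Pol2 genes with a length). Gene order, lengths and overlaps are those of Release 6, which is not the build of the tables, so no coordinates are given, and the Cuff peaks, in dm3, were not set against these genes. No sequences are shown. The 9 genes and the 8 comparison lists were chosen with earlier results of these data known; in particular CG13114 and the yellow genes were known to change. Named neighbours are the nearest on each side and those that passed, with some others near both clusters chosen after their values were seen. Named list genes are, in each assay, up to 4 with the smallest p.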

Additional observations from a re-analysis of the deposited data

How the results depend on the processing

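No paired analysis was possible because the tables hold 1 merged value per genotype; for the same reason no library could be left out and no count test could be run. At a deposited p of 0.01 or less 3 chorion genes fell in RNA and 9 in Pol2, and with at least a 2-fold difference 4 and 6. With the deposited p adjusted again, 1 fell in RNA and 8 in Pol2. The number of members with a lower mean, 7 in RNA and 9 in Pol2, was the same with table totals made equal, with or without the members. The median log2 change in RNA was -0.71 with equal totals, -0.72 with equal totals of the other genes, -0.74 with the median gene at 0, -0.73 centred on level and -0.48 centred on gene length. In Pol2 these were -1.02, -1.04, -1.15, -0.99 and -1.21. Pseudocounts of 0.1 and 10 changed neither median at 2 decimals. The ratio of shares, mutant over wild type, was 0.588 in RNA and 0.581 without the 10 other genes of highest level. In Pol2 it was 0.464, and 0.465 over genes with a mean of 50 or more, 0.461 without those 10 genes and 0.462 without CG33223, a setting chosen after seeing the data. With 5 genes on each side of a cluster 4 neighbours passed in RNA and with 20 genes 11, against 7 with 10. Without CG33223, and with the p adjusted again, 3 neighbours passed in RNA and 2 in Pol2, against 7 and 6, a setting also chosen after seeing the data.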

Other observations

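Centred on the median change of genes of like length, no chorion gene changed sign in either assay. In RNA Cp18 then stood at -0.91, Cp36 at -0.82, Cp15 at -0.77, Cp16 at -0.70, Cp19 at -0.48, Cp7Fa at -0.39 and Cp38 at -0.16, and Cp7Fb at 0.23 and Cp7Fc at 0.66. In Pol2 the range was from -1.72, at Cp19 and Cp16, to -0.75, at Cp7Fb.

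RNA of the vitelline membrane gene Vm26Ac, chosen after its values were seen, went from 33032.2 to 61951.6 (p = 0.8 in the authors' deposited table). Cad99C went from 15085 to 28257.1, with the same log2 change of 0.91, and had p = 0.005 in the authors' deposited table.

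Beside the Pol2 value of CG33223, the part not made up by the summed chorion genes was 59253.5 in wild type and 28664 in the mutant.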
